A study of Lactuca sativa with 12 samples.

Results

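Ferritins are plastid proteins of plants that assemble into hollow shells and store iron in a mineral form that cannot take part in harmful redox reactions. In Arabidopsis, ferritin transcripts are abundant when iron is plentiful and scarce when it is short, so they are widely read as a marker of the iron status of a leaf. NEET is a small CDGSH-domain protein that carries an iron-sulfur cluster, and the Arabidopsis protein has been linked to iron and reactive oxygen balance in chloroplasts and mitochondria. The genes described here are the 3 ferritin genes and the 1 NEET gene in deposited tables of lettuce leaf genes called between treatments. They were chosen by the fold changes and adjusted p-values in those tables and by their annotation, and were 4 of the 2264 genes in these tables and 4 of the 575 genes with values in all 12 libraries.

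Leaves of hydroponically grown lettuce (Lactuca sativa, cultivar Red oak-leaf) were sequenced after poly(A) selection in 4 groups of 3 libraries. Exposure began at 4 weeks of age, and leaves were taken at 1.5 months, when plants had 6 leaves. CK plants received neither agent, Cd plants received cadmium at 10 mg/L, SeNP plants received selenium nanoparticles at 3 mg/L, and CdSeNP plants received both at these doses. All groups shared the cultivar, the nutrient solution, the whole leaf as tissue and 1 batch label. The labels give the 10 mg/L for cadmium in one place and for its hydrated chloride in another, which leaves the metal dose uncertain, and no label says whether a library pooled several plants.

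Sequencing depth, recovered from the files, was lowest in SeNP 3 (23.3 M reads) and highest in Cd 2 (31.4 M reads). Replicates varied beyond counting error: the chi-square per degree of freedom over 575 genes, which is about 1 for counting error alone, was between 3.11 and 17.8 for all replicate pairs without CK 2. CK 2 stood apart from CK 1 and CK 3 at 60.3 and 64.9. The edgeR differences of Cd over CK, of SeNP over CK and of the cadmium responses are therefore also given without it. Most other results that rest on CK are given with CK 2 only. On the list of leaf markers (chlorophyll a-b binding proteins, photosystem I subunits, Rubisco small subunits) 29 genes appeared in the tables, whereas no gene of the root list (Casparian strip membrane proteins, root meristem growth factors) did. Only genes called between treatments are listed, so these counts do not tell which tissue the RNA came from.

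LOC111919692, annotated as ferritin-4, lies on chromosome 8 from 17057042 to 17059052 on the plus strand. LOC111908574, annotated as ferritin, lies on the same chromosome from 163256191 to 163258359 on the minus strand, 146 Mb away. LOC111879873, also annotated as ferritin-4, lies on chromosome 2 from 221493797 to 221496064 on the minus strand. The NEET gene LOC111903255 lies on that chromosome from 227989798 to 227990728 on the plus strand, 6.49 Mb from the ferritin. These spans cover the whole gene, are taken from the files and equal those of the RefSeq annotation Lsat_Salinas_v11, and the files do not mark exons within them. The gene models behind the FPKM values (fragments per kilobase of gene model, scaled to the reads of the library) were 1099, 1055, 1180 and 659 bases long in that order. All 3 ferritins carry the same KEGG ortholog, ferritin heavy chain, and the Pfam ferritin-like domain, so reads could be shared between them where their sequences are alike. Of the 10 nearest annotated genes around each locus, 1 was listed in any table near LOC111879873 and none near the other 3 genes, where 4.07% of all annotated genes were listed.

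All 4 genes stood lower in leaves that received cadmium, whether or not nanoparticles were present. The mean in Cd was 12% of that in CK for LOC111919692, 17.3% for LOC111908574, 19.3% for NEET and 53.7% for LOC111879873. The tables that list them are those of Cd over CK, CdSeNP over CK, CdSeNP over SeNP and SeNP over Cd. These are the values that brought the genes together, so the differences between cadmium-treated and cadmium-free leaves are described here and not tested. In whole leaves, fewer cells of a type and less RNA per cell cannot be told apart.

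LOC111919692 had the widest range of the 4 genes as a ratio, 17.17-fold between the means of SeNP and CdSeNP. Its level was 44.2, 59.9 and 41.5 FPKM in CK 1 to CK 3 and 79.5, 82.5 and 87.3 FPKM in SeNP 1 to SeNP 3. With cadmium it was 6.25, 6.06 and 5.22 FPKM in Cd and 4.94, 4.59 and 4.995 FPKM in CdSeNP. No library of one group reached into the range of another, and the order was SeNP, CK, Cd, CdSeNP. How many other listed genes had groups as separate was not counted. Separate groups, here and at the other ferritins below, are therefore not shown to be particular to these genes. The steps between Cd and CdSeNP were small beside the others: the means were 5.85 ± 0.55 and 4.84 ± 0.218 FPKM (SD, n = 3 each), against 83.1 ± 3.90 in SeNP. The spread in CK was the largest of any gene and group here (coefficient of variation 20.45%), with CK 2 above CK 1 and CK 3.

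LOC111908574 was the most abundant ferritin per length in leaves without cadmium. It stood at 163, 138 and 144 FPKM in CK and at 175, 183 and 196 FPKM in SeNP. Cadmium leaves held 24.0, 25.6 and 27.2 FPKM in Cd and 38.7, 32.0 and 32.1 FPKM in CdSeNP. All 4 groups were again separate, but this was the gene with CdSeNP above Cd, at 34.2 ± 3.87 against 25.6 ± 1.58 FPKM (SD, n = 3 each).

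LOC111879873 varied least in proportion to its level, both between groups and between replicates. Its values were 98.3, 99.1 and 92.7 FPKM in CK, 130.0, 131 and 134 FPKM in SeNP, 52.5, 52.2 and 51.1 FPKM in Cd, and 41.3, 39.95 and 40.7 FPKM in CdSeNP. The order was SeNP, CK, Cd, CdSeNP with no overlap, as for the other ferritin-4 gene. With cadmium it was the most abundant of the 3 ferritins.

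NEET was less abundant per length than any of the ferritins in every library, and its groups formed 2 levels. Without cadmium it stood at 9.43, 9.91 and 8.25 FPKM in CK and 10.3, 9.64 and 9.70 FPKM in SeNP. With cadmium it stood at 1.895, 1.645 and 1.78 FPKM in Cd and 1.46, 1.66 and 1.645 FPKM in CdSeNP. CK overlapped with SeNP, and Cd overlapped with CdSeNP, so the order within each pair was not set beyond the spread. Its cadmium libraries rest on 24 to 38 reads each, for which counting alone gives a coefficient of variation of 16.8% in Cd and 19.3% in CdSeNP. The ferritins rest on at least 120 reads in every library.

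**Figure D1:**
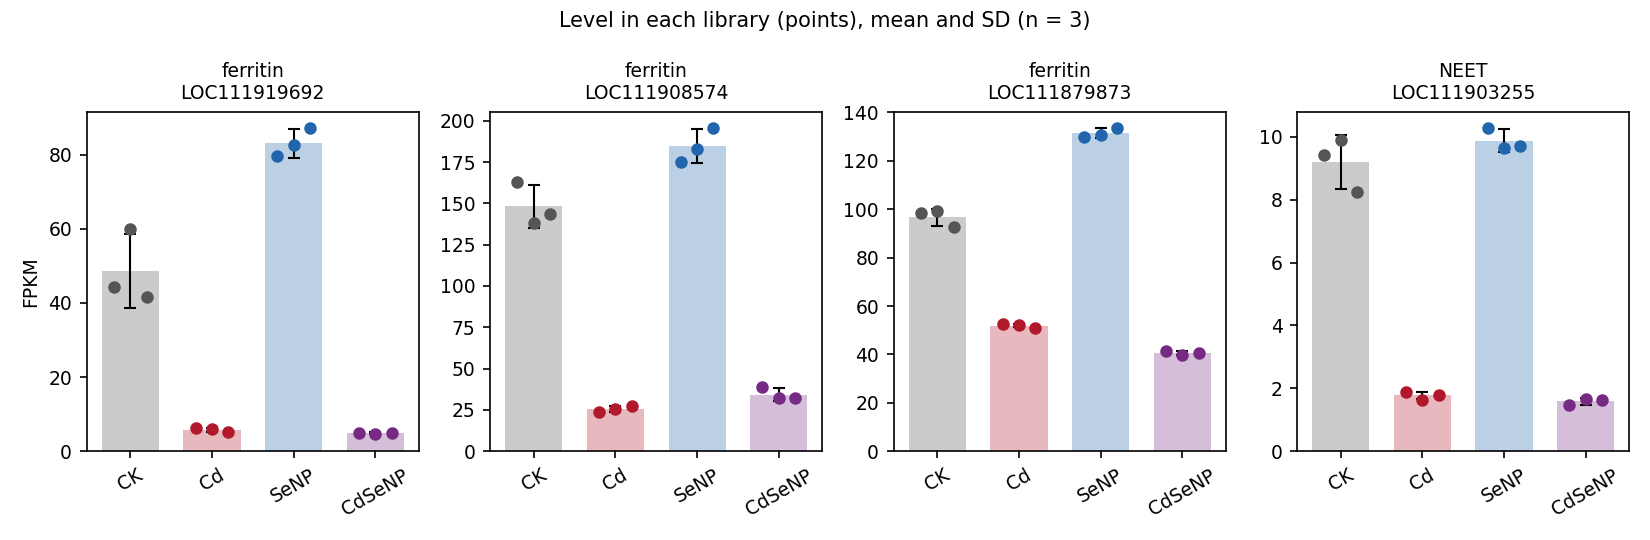
Level of the 3 ferritin genes and NEET in FPKM (vertical axes start at 0 and differ between panels) in CK, Cd, SeNP and CdSeNP; points are libraries, bars are means and error bars are SD of 3 libraries. All points of the Cd and CdSeNP groups lie below all points of CK and SeNP, and the NEET points of CK and SeNP overlap.

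The authors' deposited table of Cd over CK lists all 4 genes as lower, where 1.39% of the 23049 genes tested were listed as lower. Its log2 fold changes were -3.17 for LOC111919692, -2.65 for LOC111908574, -2.49 for NEET and -1.01 for LOC111879873. In that table the first 3 of these ranked 4, 7 and 13 by size among the 320 genes lower in Cd, while LOC111879873 ranked 310. The authors' deposited table gave adjusted p-values (DESeq2) of 7e-87, 8.6e-138, 5.5e-27 and 1.1e-45 in the order just used. LOC111879873 lies just inside the limit of 1 that decides whether a gene is listed, and its value was under that limit in size with library totals (-0.90), TMM (-0.81) and limma (-0.88 and -0.89). Just outside the limit in the edgeR fit is LOC111919692 in SeNP over CK at 0.75, which exceeded it with DESeq2 (1.26) and TMM (1.39). Estimated with edgeR without CK 2, Cd over CK was -3.01, -2.72, -2.45 and -1.02 for LOC111919692, LOC111908574, NEET and LOC111879873.

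The same contrast in the presence of nanoparticles used 6 other libraries. The authors' deposited table of CdSeNP over SeNP also lists all 4 as lower, where 0.625% of 22862 genes were. There the log2 fold changes were -4.14 for LOC111919692, -2.48 for LOC111908574, -2.68 for NEET and -1.74 for LOC111879873. LOC111919692 ranked 2 and NEET ranked 5 by size among the 143 genes lower in that table. The genes were named with both tables known, so their joint listing adds nothing to the choice.

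The other listings share libraries with these. In the authors' deposited table of CdSeNP over CK (1.33% of 22856 genes lower) the log2 fold changes were -3.41, -2.20, -2.62 and -1.34 for LOC111919692, LOC111908574, NEET and LOC111879873. In that of SeNP over Cd (0.67% of 22978 genes higher) they were 3.93, 2.95, 2.58 and 1.44 in the same order. None of the 4 genes is in the deposited tables of SeNP over CK or CdSeNP over Cd, in which 3.31% and 1.87% of the genes tested were listed in either direction.

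For the pairs of groups in which no table lists the genes, differences were estimated with edgeR over the 575 genes with counts in all libraries. The libraries of these pairs also entered the tables that chose the genes, so the p-values describe the genes and are no independent test. Of the 4 genes, the 3 ferritins were called higher in SeNP than in CK, where 22.1% of the 575 genes were. SeNP exceeded CK by 0.75 on the log2 scale at LOC111919692 (standard error 0.14, adjusted p = 0.00064, edgeR quasi-likelihood test), which is 1.68-fold, with all 3 SeNP libraries above all 3 CK libraries. LOC111879873 exceeded it by 0.41 (standard error 0.09, adjusted p = 0.001, edgeR), also with no overlap. LOC111908574 was 0.28 higher (standard error 0.11, adjusted p = 0.042, edgeR). With TMM and DESeq2, which took the scaling from the 575 genes, the 3 differences were larger: 1.39 and 1.26 at LOC111919692, 1.07 and 0.97 at LOC111879873, and 0.95 and 0.86 at LOC111908574. The call of LOC111908574 ended without CK 2 (0.22, adjusted p = 0.066, edgeR), without CK 3 (0.27, adjusted p = 0.087) and without any one Cd or SeNP library (adjusted p between 0.051 and 0.11), and over all 19 alternatives adjusted p lay between 1.6e-05 and 0.11. NEET differed by 0.07 (standard error 0.15, adjusted p = 0.69, edgeR), and it was called higher with TMM (0.73) and DESeq2 (0.63). Without CK 2 the differences were 0.91, 0.41 and 0.11 at LOC111919692, LOC111879873 and NEET. In this fit 45% of the 575 genes were called lower in SeNP, and their median log2 difference was -0.4. The 575 genes had all been called by the authors in some pair of groups, so calls are frequent among them.

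Between CdSeNP and Cd the ferritins differed in direction with the authors' scaling: 1 of the 4 genes was called higher (27.1% of the 575 genes were) and 1 lower (25.6%), so calls in either direction were common. LOC111908574 was 0.46 higher on the log2 scale in CdSeNP than in Cd (standard error 0.12, adjusted p = 0.0049, edgeR), although this became -0.20 when TMM scaling was taken from the 575 genes and its call ended with DESeq2 (0.35, adjusted p = 0.13, in a range of 0.00054 to 0.13 over the alternatives). LOC111879873 was lower by 0.31 (log2 difference -0.31, standard error 0.09, adjusted p = 0.009, edgeR), and its call ended with DESeq2 (-0.43, adjusted p = 0.052, in a range of 6.8e-06 to 0.052). LOC111919692 differed by -0.23 (standard error 0.15, adjusted p = 0.23) and NEET by -0.12 (standard error 0.18, adjusted p = 0.66, edgeR). With TMM scaling both were called lower, at -0.89 and -0.77, and LOC111879873 was at -0.98. These differences were small beside the distance to CK: the ferritin LOC111908574 stood at 17.3% of its CK level in Cd and 23.1% in CdSeNP, and the other 3 genes stood lower in CdSeNP than in Cd by their means.

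**Figure D2:**
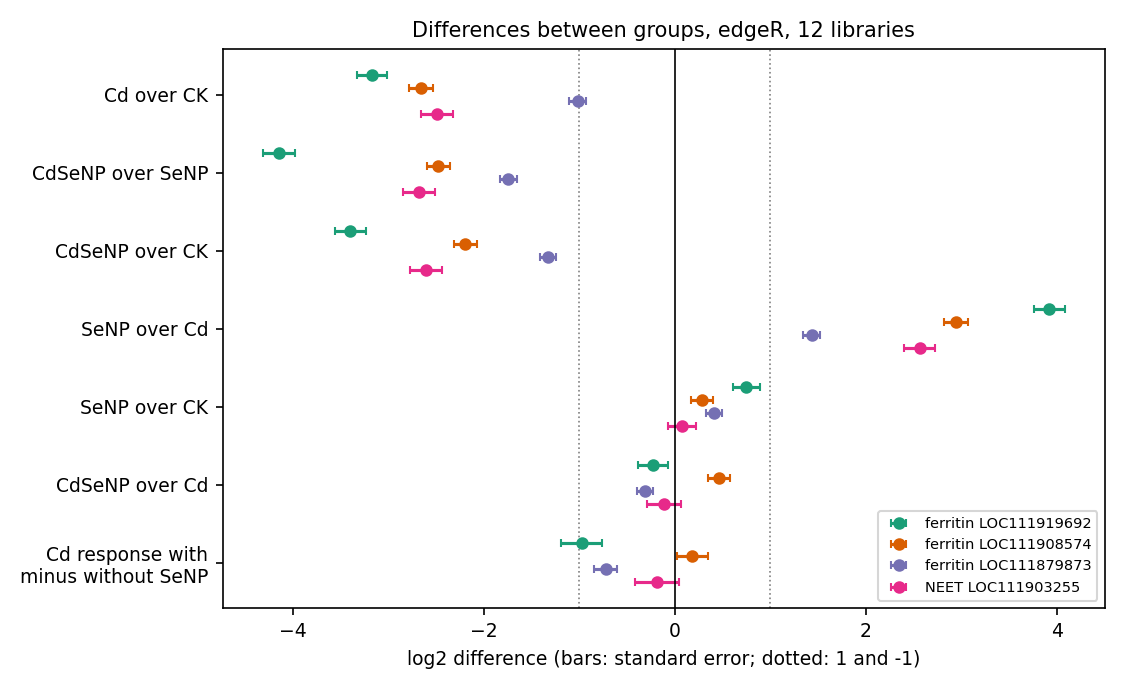
Log2 differences between groups for the 3 ferritins and NEET from an edgeR fit of 12 libraries (points; bars are standard errors; dotted lines mark the authors' listing limit of 1 in either direction). The 4 contrasts of leaves with and without cadmium lie at or beyond the limit, whereas SeNP over CK and CdSeNP over Cd lie within it.

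The cadmium response could be compared between leaves with and without nanoparticles. For LOC111919692 the log2 difference of CdSeNP over SeNP was -4.15 and that of Cd over CK -3.17, which differ by -0.98 (standard error 0.21, edgeR interaction term). For LOC111879873 the responses were -1.74 and -1.02, a difference of -0.72 (standard error 0.12). LOC111908574 gave -2.48 and -2.66, a difference of 0.18 (standard error 0.16), and NEET -2.68 and -2.49, a difference of -0.19 (standard error 0.23). The difference of LOC111908574 turned to -0.51 with DESeq2 and -1.15 with TMM scaling, that of NEET became -0.87 and -1.5, that of LOC111919692 -1.60 and -2.28, and that of LOC111879873 -1.40 and -2.05. Without CK 2 the 4 differences were -1.13, -0.72, 0.25 and -0.23 for LOC111919692, LOC111879873, LOC111908574 and NEET. The genes were listed and chosen by both responses, so no p is given. Differences of this kind in either direction were common, with an adjusted p under 0.05 at 73.7% of the 575 genes (edgeR). Their median over these genes was 0.51 with the authors' scaling. At both ferritin-4 genes the SeNP mean was the highest and the CdSeNP mean the lowest of the 4 groups.

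Ratios between genes within a library do not depend on how libraries are scaled, and they were examined after the levels had been seen. LOC111908574 held 1.66, 1.40 and 1.55 times the FPKM of LOC111879873 in CK and 1.40 ± 0.059 times in SeNP (SD, n = 3), and these groups overlapped. In Cd the ratio was 0.458, 0.49 and 0.532, and in CdSeNP 0.842 ± 0.083, between 0.788 and 0.938. The ratio in CdSeNP was thus above every Cd library and below every library without cadmium. The ratio of LOC111919692 to LOC111879873 differed from this. It was 0.501 ± 0.09 in CK and 0.632 ± 0.021 in SeNP, and 0.112 ± 0.009 in Cd and 0.119 ± 0.004 in CdSeNP, where the libraries of the cadmium groups overlapped. LOC111879873 held 10.55 ± 0.622 times the FPKM of NEET in CK and 29.4 ± 2.12 times in Cd. LOC111919692 also held 0.331 ± 0.089 times the FPKM of LOC111908574 in CK, with CK 2 at 0.433, and 0.142 ± 0.014 times in CdSeNP.

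**Figure D3:**
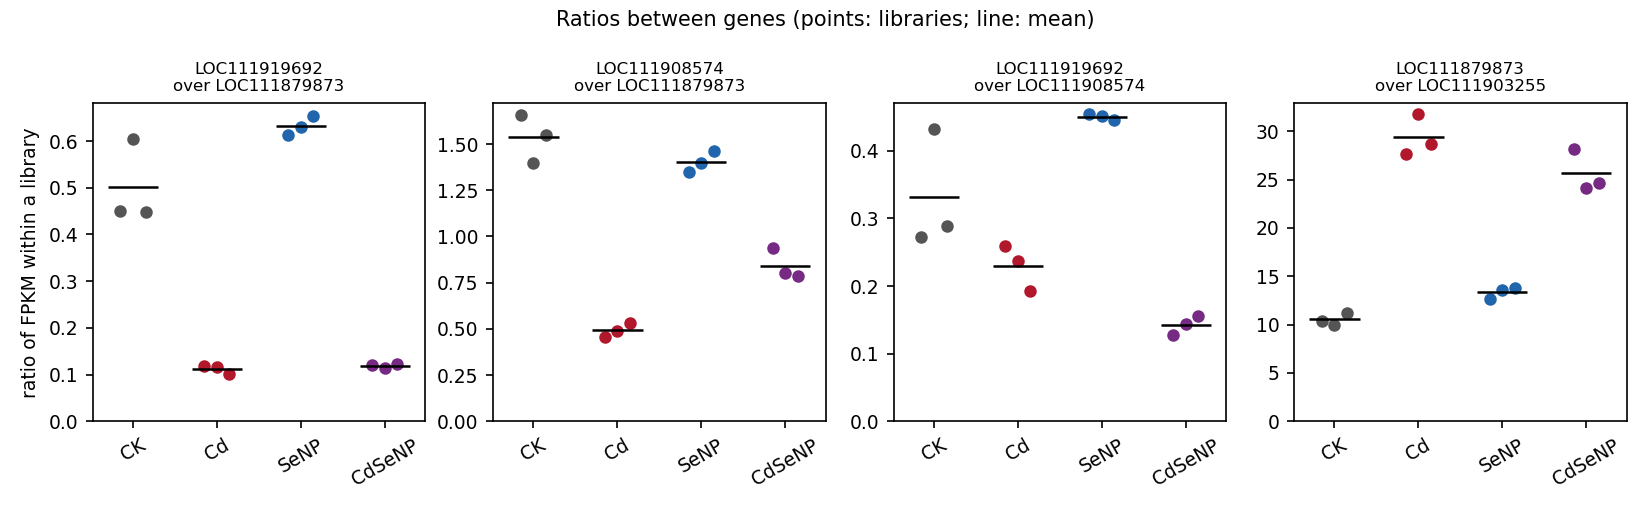
Ratio of the FPKM of one gene to that of another within each library (points; lines are means of 3 libraries; vertical axes start at 0). The ratio of LOC111908574 to LOC111879873 is lowest in Cd and intermediate in CdSeNP, and LOC111879873 over NEET (LOC111903255) is highest with cadmium.

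Summed over the 3 genes, the ferritin level was low with cadmium alone and with both agents. The sum was 294 ± 14.2 FPKM in CK (between 278 and 305), 399 ± 16.25 in SeNP (385 to 417), 83.4 ± 0.592 in Cd (82.7 to 83.9) and 79.7 ± 4.55 in CdSeNP (76.5 to 84.9). Cd and CdSeNP overlapped, and both were far below CK. The make-up of the sum also differed between groups. LOC111879873 made up 33.0% ± 0.669 in CK and 33.0% ± 0.863 in SeNP, but 62.3% ± 1.11 in Cd and 51.1% ± 2.11 in CdSeNP (SD, n = 3). LOC111908574 made up 50.5% ± 3.56 in CK, 30.7% ± 1.76 in Cd and 42.9% ± 2.36 in CdSeNP. The share of LOC111919692 was 16.5% ± 3.15 in CK, 14.7% without CK 2, and 20.8% ± 0.131 in SeNP, against 7.01% ± 0.68 in Cd and 6.08% ± 0.315 in CdSeNP. Ferritin genes that no table lists, if any, are not in these sums.

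**Figure D4:**
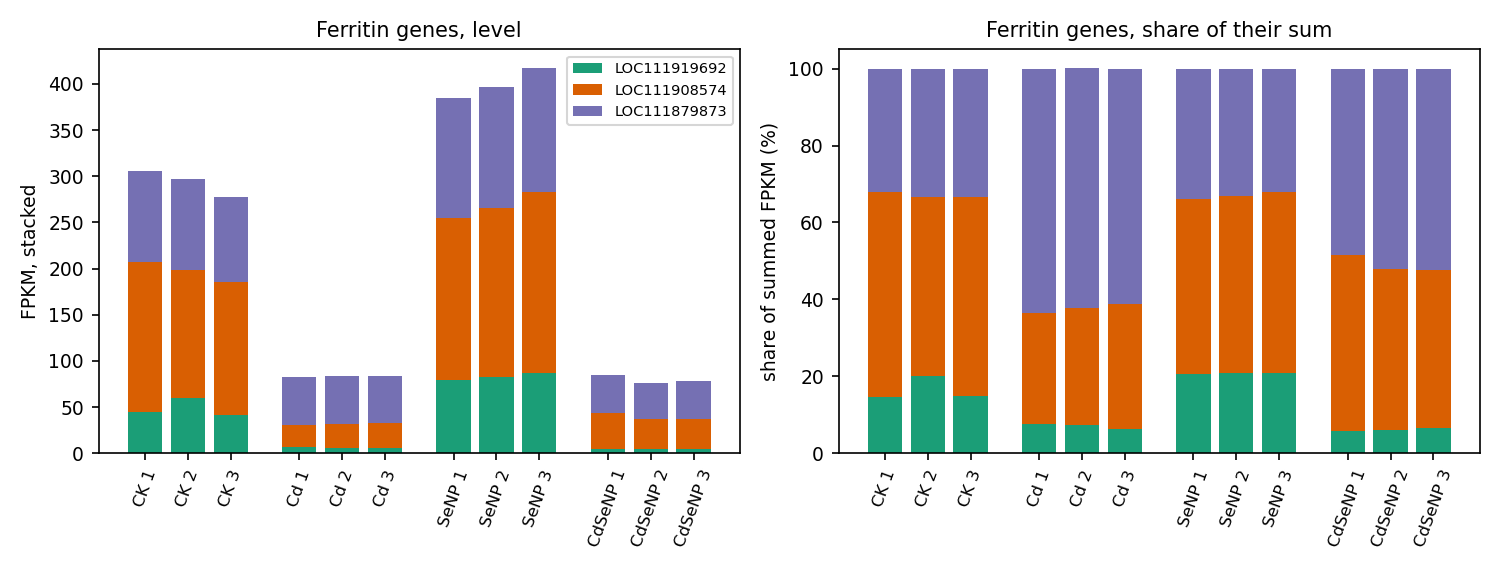
FPKM of the 3 ferritin genes stacked for each of the 12 libraries (left) and as a share of their sum in percent (right). The stacks are between 278 and 417 FPKM high without cadmium and between 76.5 and 84.9 FPKM with it, and LOC111879873 takes 61.2% to 63.4% of them in Cd against 32.2% to 33.4% in CK.

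Over the 12 libraries the 4 genes varied together, with Pearson's r of log2(FPKM + 1) between 0.942 (LOC111908574 and LOC111879873) and 0.989 (LOC111919692 and NEET). These libraries fall into leaves with and without cadmium, which alone gives high correlations, and no p is given. The 3 most alike genes of each were taken from 210 other described genes with values in all libraries, which gave 9 different genes. Of these 9, 5 were on the leaf marker list, as were 11% of the 210, and all 210 had been called by the authors in some pair of groups. Chlorophyll a-b binding protein P4 (LOC111877753), an antenna protein of photosystem I, came first for LOC111919692 (r = 0.996) and for LOC111879873 (r = 0.993). Photosystem I subunit III (LOC111898563) came first for NEET (r = 0.997) and second for LOC111919692 (r = 0.993). Glutamyl-tRNA reductase 1 (LOC111877439), which opens the synthesis of chlorophyll and haem, followed for NEET (r = 0.995) and LOC111919692 (r = 0.989). For LOC111908574 the closest were photosystem I chlorophyll a/b-binding protein 3-1 (LOC111914553) and photosystem I subunit N (LOC111904178), both at r = 0.993, and plastidial pyruvate kinase 4 (LOC111888822, r = 0.99). The remaining genes were LHCII type 1 genes (LOC111921754, r = 0.981 with LOC111879873, and LOC111895045, r = 0.994 with NEET) and the plastid sigma factor sigA (LOC111892130, r = 0.98 with LOC111879873). Ranking by Spearman's correlation kept 1 of the 3 genes for LOC111879873 and 1 of 3 for NEET.

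Like the ferritins, most leaf markers were lower with cadmium. Of the 29 listed, 25 were lower in Cd over CK (14.1% of all 2264 listed genes were) and none higher. In SeNP over Cd 26 were higher, against 6.8% of all listed genes. None was called in SeNP over CK, where 12.5% of listed genes were higher and 20.7% lower. Nor was any called in CdSeNP over Cd, where 11.1% were higher and 8.04% lower. The summed level of the 24 with values in all libraries was 26242 to 27819 FPKM in CK, 28215 to 29022 in SeNP, 11933 to 12813 in Cd and 11659 to 12154 in CdSeNP.  The part of the leaf markers in the ferritin and NEET result was not tested.

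Other genes of iron balance were counted on word lists chosen with earlier results of these data known. Descriptions were at hand for listed genes only, so list members that no table holds were not counted, and the share of all 2264 listed genes is given beside that of all genes tested. On the list of iron regulators, all 4 listed genes were higher in Cd over CK (35.3% of listed and 3.47% of tested genes were) and in CdSeNP over SeNP (32.7% and 3.24%). They include ORG2 (LOC111878349) and bHLH100 (LOC111878325), relatives of Arabidopsis factors that rise in iron shortage. bHLH100 stood at 0.095 ± 0.096 FPKM in CK and 0.12 ± 0.012 in SeNP, and at 8.44 ± 0.663 in Cd and 9.14 ± 0.45 in CdSeNP (SD, n = 3). The ORG2 gene LOC111878349 had no counts in any library without cadmium and stood at 13.2 ± 0.616 FPKM in Cd and 12.4 ± 0.454 in CdSeNP. Of the other genes described as ORG2, LOC111878326 also stood at 0 FPKM in CK and SeNP. LOC111878327 did not: it stood at 0.081 ± 0.053 FPKM in CK, 0.163 ± 0.073 in SeNP, 1.58 ± 0.238 in Cd and 1.11 ± 0.035 in CdSeNP.

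Iron transport genes went both ways. Of 13 listed, 5 were higher and 4 lower in Cd over CK, where 35.3% and 14.1% of all listed genes and 3.47% and 1.39% of tested genes were. In CdSeNP over SeNP 9 were higher and 2 lower, against 32.7% and 6.32% of listed and 3.24% and 0.625% of tested genes. The named members of each list are those with the smallest adjusted p of Cd over CK in the authors' deposited table, so a clear difference with cadmium was part of their choice. Oligopeptide transporter 3 (LOC111920790), which moves iron in the phloem of Arabidopsis, was at 7.45 ± 0.968 FPKM in CK, 6.54 ± 0.457 in SeNP, 54.8 ± 1.15 in Cd and 54.5 ± 3.19 in CdSeNP. Nramp3 (LOC111896352), which in Arabidopsis releases metals from the vacuole, was at 19.8 ± 1.57, 22.5 ± 0.492, 69.5 ± 2.57 and 72.5 ± 2.14 FPKM in the same order. Lower in Cd over CK were vacuolar iron transporter homologs 4 (LOC111899502, authors' deposited log2 fold change -3.99) and 2 (LOC111907774, -1.22), Nramp6 (LOC111892195, -1.29) and YSL3 (LOC111920401, -1.13). Another gene described as vacuolar iron transporter homolog 4 (LOC111899495) was higher, at 2.28, so genes of that description went both ways. All of these were named after their values were seen. Beside NEET, the list of iron-sulfur assembly held 1 listed gene, the SufE-like protein 2 (LOC111881562). It was listed as lower in SeNP over CK (20.7% of listed and 2.07% of tested genes were), at low levels of 0.743 ± 0.146 FPKM in CK and 0.29 ± 0.014 in SeNP. No gene of the ferredoxin or haem lists appeared in any table.

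**Figure D5:**
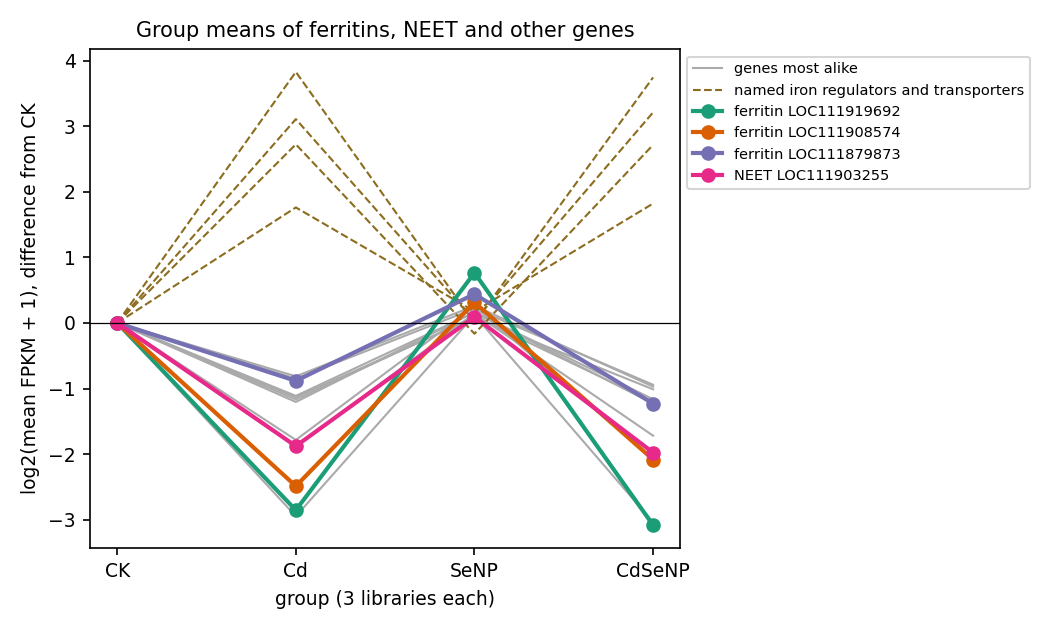
Group means as log2(FPKM + 1) relative to CK for the ferritins and NEET (thick lines), the genes whose pattern was most like theirs (grey) and the 4 named iron regulators and transporters (dashed); each line joins the 4 group means of 1 gene, 3 libraries each. The ferritins, NEET and the grey lines are low in Cd and CdSeNP, where the dashed lines, chosen for their difference between Cd and CK, are high.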

How the data were processed

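Poly(A)-selected leaf RNA was sequenced in 12 libraries of 4 groups, taken from the labels. The authors deposited 6 tables, 1 per pair of groups, with raw read counts, FPKM, the log2 fold change and its p-value, raw and adjusted, per the file headers. They list called genes only (adjusted p under 0.05, absolute log2 fold change over 1). The submitters' processing notes name DESeq2 1.34.0, StringTie 2.2.1, HISAT2 2.2.1, fastp 0.23.0 and Trimmomatic, with no role or order. Counter, strand setting and build: not given in the sources used here. Of the gene IDs, 2102 had a match of equal coordinates in Lsat_Salinas_v11 and 162 had none.

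The numbers of genes tested were worked out by dividing adjusted by raw p-values. Library totals were recovered from counts, FPKM and spans over genes with at least 200 counts and agreeing within 0.2%, and gene model lengths from these totals. Size factors were fitted to the authors' fold changes over genes with at least 50 counts. Differences were fitted to the counts with edgeR 4.0.16 (quasi-likelihood, group means, no filter, these size factors) over the 575 genes with values in all libraries, with Benjamini-Hochberg adjustment. edgeR's standard error is the log2 difference divided by the root of F. The fit was tested on simulated data. Alternatives used DESeq2 1.42.0, limma 3.58.1 on log2(FPKM + 1) or log2(FPKM + 0.1), library totals, TMM, a filter of 10 counts in 3 libraries, the replicate number as a block, and each library left out.

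The 4 genes, the word lists (matched on RefSeq descriptions) and the tests were chosen with earlier results of these data known. Other genes named were, per gene, the 3 with the highest Pearson correlation (described, at least 5 FPKM in the highest group) and, per iron list, up to 2 with the smallest adjusted p of Cd over CK. The SufE-like gene, the transporters lower in Cd over CK and LOC111899495 were named after their values were seen. So were the other ORG2, YSL3 and oligopeptide transporter 3 genes. The series text calls the replicates biological. A planned search of promoter motifs was not run, since no sequences were used here.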

Additional observations from a re-analysis of the deposited data

Results flagged for a closer look

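At both ferritin-4 genes the cadmium response was larger in size with nanoparticles than without them in the edgeR fit. The difference of the responses was -0.98 on the log2 scale at LOC111919692 (standard error 0.21; -4.15 with nanoparticles and -3.17 without) and -0.72 at LOC111879873 (standard error 0.12; -1.74 and -1.02). Both responses also listed and chose these genes, so these values describe the genes and were not tested. A difference in either direction had an adjusted p under 0.05 at 73.7% of the 575 genes (edgeR). The median difference of the 575 genes was 0.51 with the authors' scaling, and TMM and DESeq2 moved it by -1.28 and -0.71. Over the 19 alternatives they lay between -2.28 and -0.89 at LOC111919692 and between -2.05 and -0.70 at LOC111879873.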

How the results depend on the processing

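The differences of Cd over CK, CdSeNP over CK, CdSeNP over SeNP and SeNP over Cd kept their direction at all 4 genes in each of the 19 alternatives run. These differences chose the genes, so a kept direction is no independent support. Leaving out a library of a group outside the contrast, or applying the filter, hardly moves an estimate, so those alternatives could not change a direction. LOC111879873 in Cd over CK came under the authors' listing limit of 1 in size with library totals (-0.90), TMM (-0.81) and limma (-0.88 and -0.89). TMM and DESeq2 took their scaling from the 575 genes, which were all called by the authors, and moved the median log2 difference of these genes by 0.67 and 0.59 in SeNP over CK, by -0.67 and -0.12 in CdSeNP over Cd, by -1.1 and -0.67 in CdSeNP over SeNP and by -1.28 and -0.71 in the difference of the cadmium responses. Library totals moved it by 0.13 in Cd over CK. Under TMM, CdSeNP over Cd became -0.20 at LOC111908574, -0.89 at LOC111919692, -0.98 at LOC111879873 and -0.77 at NEET (LOC111903255), SeNP over CK became 0.73 at NEET, and the difference of the responses became -1.15 at LOC111908574 and -1.5 at NEET. Under DESeq2, CdSeNP over Cd became 0.35 at LOC111908574 and -0.43 at LOC111879873, SeNP over CK became 0.63 at NEET, and the difference of the responses became -0.51 at LOC111908574 and -0.87 at NEET. With 1 library left out, SeNP over CK at LOC111908574 lay between 0.22 and 0.36. Spearman's correlation kept 1 of the 3 most alike genes for LOC111879873 and 1 for NEET, and with a limit of 2 on the log2 fold change the iron transport list held 3 genes higher and 1 lower in Cd over CK. As a share of reads in place of FPKM, LOC111879873 made up 64.7% of the ferritins in Cd and 35.2% in CK. The filter of 10 counts removed none of the 575 genes.

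Replicate numbers are shared by the groups, but no label says what a number marks, and not every same-numbered pair varied together, so the numbers were not used as pairs: 9 of 18 correlations between same-numbered libraries were over 0.1, their range was -0.244 to 0.397, and 9 of 12 libraries correlated best with their own number, so a partial pairing was not shown to be absent. With the replicate block, calls in SeNP over CK went from 386 to 387 and in CdSeNP over Cd from 303 to 323 of 575 genes. In that fit SeNP over CK was 0.76, 0.29, 0.41 and 0.07 and CdSeNP over Cd -0.22, 0.46, -0.31 and -0.11 at LOC111919692, LOC111908574, LOC111879873 and NEET, and no call of these genes changed. Depth limits NEET most, with 24 to 38 reads per cadmium library.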
